A study of Mus musculus with 2 samples.

Results

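MHC class II-high cells were the 5% of tumor mononuclear phagocytes (TMPs) with the largest share of RNA from 4 class II genes, 718 of 14351 cells in all. They came from 2 droplet-based single-cell RNA libraries of MerTk+ CD64+ TMPs, sorted from B16 melanoma tumors that grew in C57Bl/6 mice. One library was from Fcmr+/+ mice and one from Fcmr-/- mice, which lack the putative IgM receptor Fcmr in all cells. The sources used here give no treatment, no age and no number of mice pooled per library, so each library counted as 1 sample. B16 is a transplanted mouse melanoma line, and CD64 (Fcgr1) and MerTk are surface receptors of mature macrophages. For each kept cell (200 to 7000 genes, at most 30% of unique molecular identifiers, UMIs, on mitochondrial genes), the UMIs of H2-Aa, H2-Ab1, H2-Eb1 and Cd74 were summed and divided by the UMIs of the cell, and cells of both libraries were ranked together. Of the 6352 Fcmr+/+ cells, 311 were class II-high (4.90%, exact binomial 95% interval 4.38 to 5.46%), and of the 7999 Fcmr-/- cells 407 were (5.09%, interval 4.62 to 5.59%). The 2 intervals overlap. With 1 library per genotype no test was possible, and every interval given here covers counting error and not the spread between mice.

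MHC class II molecules display peptides from engulfed and degraded material to CD4 T cells. An alpha and a beta chain pair in the endoplasmic reticulum with the invariant chain Cd74, which blocks the groove and carries the complex to endosomes. There proteases trim Cd74 to a short fragment, H2-DM exchanges that fragment for a peptide, and H2-O restrains H2-DM. The genes are switched on together by the coactivator Ciita, which binds no DNA itself and docks on RFX and NF-Y complexes at the X and Y boxes of their promoters. In tumors, macrophages with little and with much class II are commonly distinguished, and monocytes, dendritic cells and B cells can also carry class II.

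The promoters of class II genes are shown because these genes chose the cells or were high in them together. Sequences are from RefSeq (GRCm38.p6), 150 bases each, on the strand of the gene, and 7 of 8 genes looked up had an entry (H2-Ab1 did not). Each runs from 125 bases before the start of the RefSeq entry to 25 after it. This start can differ from that of the GENCODE gene, which for H2-DMb2 is 34143307 while its window begins at 34145124. All 8 lie on chromosome 17, from H2-Oa (chr17:34092340-34095234) to H2-Eb1 (chr17:34305867-34316674) in GENCODE's annotation of GRCm38, and Ciita lies on chromosome 16 (chr16:10480059-10528418). Capitals mark ATTGG, the core of a Y box, its reverse complement CCAAT, and CTAGNAAC, the core of an X box, none of which overlap.
H2-Aa (chr17:34287799-34287948, minus strand): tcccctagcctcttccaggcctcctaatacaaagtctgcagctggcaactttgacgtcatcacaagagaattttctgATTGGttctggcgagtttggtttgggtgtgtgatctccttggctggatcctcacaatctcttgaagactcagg
H2-Eb1 (chr17:34305742-34305891, plus strand): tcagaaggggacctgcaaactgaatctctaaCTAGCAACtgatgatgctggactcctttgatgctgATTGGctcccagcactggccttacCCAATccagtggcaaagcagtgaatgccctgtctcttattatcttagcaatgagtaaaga
H2-DMb1 (chr17:34153066-34153215, plus strand): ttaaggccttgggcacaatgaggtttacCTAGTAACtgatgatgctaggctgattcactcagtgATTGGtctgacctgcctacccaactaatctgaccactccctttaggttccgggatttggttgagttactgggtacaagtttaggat
H2-DMb2 (chr17:34145124-34145273, plus strand): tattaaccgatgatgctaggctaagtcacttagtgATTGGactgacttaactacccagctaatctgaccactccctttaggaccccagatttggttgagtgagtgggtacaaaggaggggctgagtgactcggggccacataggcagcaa
H2-Oa (chr17:34092254-34092403, plus strand): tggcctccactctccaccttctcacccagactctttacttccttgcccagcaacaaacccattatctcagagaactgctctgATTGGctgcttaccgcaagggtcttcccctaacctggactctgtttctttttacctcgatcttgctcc
H2-Ob (chr17:34238780-34238929, plus strand): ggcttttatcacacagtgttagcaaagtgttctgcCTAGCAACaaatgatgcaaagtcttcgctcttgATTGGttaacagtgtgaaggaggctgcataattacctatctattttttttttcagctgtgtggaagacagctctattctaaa

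ATTGG began at -48 in H2-Aa, -59 in H2-Eb1, -61 in H2-DMb1, -90 in H2-DMb2, -43 in H2-Oa and -57 in H2-Ob, counted from the RefSeq start. CTAGNAAC began further upstream, at -94 in H2-Eb1, -97 in H2-DMb1 and -90 in H2-Ob. H2-DMa had none of these letters in its 300-base RefSeq window, which says only that they are not in that window. Over 27025 promoters of that length, from 250 bases before to 50 after the start, 37.9% held ATTGG or CCAAT on either strand, against 6 of the 7 class II promoters. CTAGNAAC on either strand was in 3.67% of promoters and in 3 of these 7. A match describes the sequence and is not a binding site measured in these cells.

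Fcmr, on chromosome 1, could not check the genotype labels. Class II-high cells had 0 Fcmr UMIs in both libraries, which allows up to 0.739 CPM in Fcmr+/+ and 0.638 CPM in Fcmr-/- (CPM, UMIs of a gene summed over a group of cells, per 1000000 UMIs of the group, with 3 counts taken as the limit of a count of 0). Among the remaining cells it was barely seen, with 7 UMIs spread over 4 cells of the Fcmr+/+ library and 6 over 6 cells of the other.

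The ranking genes took a median of 3.995% of UMIs in class II-high cells, against 0.142% over all kept cells. The cells were chosen by these values, which are given only as a description. The share had no gap at the cutoff: the lowest class II-high cells had 2.9693% and 2.9694%, and the highest of the remaining cells 2.9686% and 2.9661%. Within 10% of the cutoff lay 132 class II-high and 157 remaining cells. In Fcmr+/+ and Fcmr-/- the share had a 90th percentile of 1.77% and 2.04%, a 95th of 2.95% and 2.99% and a 99th of 5.61% and 5.02%, with a highest value of 9.59% and 8.702%, whereas the median over all cells was 0.0698% in Fcmr+/+ and 0.238% in Fcmr-/-. Cd74 was at 18846 CPM in Fcmr+/+ and 17429 CPM in Fcmr-/- class II-high cells, against 1754 and 2755 CPM in the remaining cells. H2-Aa was at 9663 and 8828 CPM against 692 and 1108, and H2-Ab1 and H2-Eb1 followed the same order.

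Class II-high cells held fewer UMIs than the remaining cells, with a median of 11605 against 18393 in Fcmr+/+ and 10250 against 13158 in Fcmr-/-. They totalled 4059338 UMIs in Fcmr+/+ and 4705249 in Fcmr-/-. Median detected genes were 2815 against 3807 in Fcmr+/+ and 2608 against 3202 in Fcmr-/-, but with every cell thinned to 5000 UMIs they were 1735 against 1833 and 1726 against 1833. Mitochondrial UMIs had a median of 4.05% against 4.74% in Fcmr+/+ and 3.94% against 4.08% in Fcmr-/-. Ribosomal protein genes took 17.1% against 13.4% of UMIs in Fcmr+/+ and 15.8% against 13.4% in Fcmr-/-. In groups of equal size by UMIs per cell, class II-high cells were 9.45%, 6.49%, 3.09% and 0.567% of Fcmr+/+ cells from the shallowest to the deepest group, and 6.75%, 7.95%, 4.05% and 1.60% of Fcmr-/- cells. They were thus scarcest among the deepest cells of both libraries. Ranking cells after thinning chose 681 of the same 718 cells (94.8%). When the remaining cells were weighted to the depths of class II-high cells, 195 genes were at least 2-fold higher and 220 lower in both libraries, against 216 and 296 without weights. No cell barcode gave a class II-high cell in both libraries, and 4 class II-high cells had one of the 73 barcodes that the libraries shared.

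Macrophage markers were detected in both class II-high and remaining cells, though some of them in fewer class II-high cells. Of 15 macrophage markers, a median of 13 were detected per class II-high cell in both libraries, against 14 in the remaining cells, and at least 5 were detected in 311 of 311 Fcmr+/+ and 404 of 407 Fcmr-/- cells. At least 5 were also found in 6041 of 6041 and 7588 of 7592 remaining cells, and in every Fcmr+/+ class II-high cell with the dendritic cell markers described below, so this count does not show which class II-high cells are macrophages. Lyz2 (lysozyme) was at 7282 and 9726 CPM in Fcmr+/+ and Fcmr-/- class II-high cells, against 8996 and 8983 in the remaining cells. Fcgr1, the CD64 gene of the sort, was at 336 and 452 CPM against 248 and 392, higher in class II-high cells of both libraries. Mertk, the other gene of the sort, was at 40.6 and 37.4 CPM against 63.5 and 49.2, lower in both. Adgre1 (F4/80) was at 138 and 227 CPM against 311 and 363, also lower in both, by a log2 ratio in Fcmr+/+ of -1.16, or -0.94 without cells with at least 2 dendritic cell marker UMIs. The 15 markers summed to 22228 against 28785 CPM in Fcmr+/+ and to 26189 against 26951 CPM in Fcmr-/-.

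Markers of dendritic cells moved with the class II share. At least 2 UMIs of 10 defining dendritic cell markers were found in 47 Fcmr+/+ class II-high cells (15.1%, interval 11.3 to 19.6%) and in 54 Fcmr-/- ones (13.3%, interval 10.1 to 16.95%), against 0.861% and 1.01% of the remaining cells. The 10 markers summed to 158.9 and 178.7 CPM in class II-high cells and to 4.31 and 8.48 CPM in the remaining ones, and Cd209a was the most abundant in class II-high cells. B cell markers were low, and at least 2 of their UMIs were in 2.57% and 2.46% of class II-high cells against 12.5% and 8.85% of the remaining ones. They summed to 14.3 CPM in Fcmr+/+ and 12.96 in Fcmr-/- class II-high cells, below the 26.6 and 26.9 CPM of the remaining cells, and Pax5 and Blk were at 0 in all class II-high cells. T and NK cell markers summed to 2.46 and 4.89 CPM, against 3.12 and 18.1, with Gzma, Ncr1 and Ifng at 0. The cells are therefore called class II-high cells here, by their rule. Values given without such cells come from a ranking that left those cells out first.

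The H2-DM genes of class II loading and Ciita were high together with the ranking genes, whereas Ctsb, Ctsd and Ctsl, proteases of the same pathway, were low. H2-DMa, the alpha chain of the peptide exchanger, was at 727 CPM in Fcmr+/+ class II-high cells and 99.5 CPM in the remaining ones, and at 699 and 169 CPM in Fcmr-/-. Its log2 ratio of class II-high to remaining cells, taken after 1 CPM was added as for all log2 ratios here, was 2.86 (interval 2.78 to 2.93) in Fcmr+/+ and 2.04 (1.97 to 2.11) in Fcmr-/-. The levels in class II-high cells were nearly equal between the libraries, and the ratios differed through the remaining cells. H2-DMb1, the more abundant beta chain gene, showed the same order, with 772 and 715 CPM in class II-high cells and 89.3 and 138 CPM in the remaining ones. H2-DMb2, a near-identical beta chain gene whose reads could be split with H2-DMb1 by the counting, was at 93.4 and 60.1 CPM against 3.48 and 4.17.

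H2-Oa and H2-Ob, which encode the restraining H2-O chains, were at low levels in class II-high cells, though above those of the remaining cells. For H2-Oa most UMIs of class II-high cells were in those with dendritic cell markers. H2-Oa was at 15.5 (interval 11.9 to 19.9) and 20.8 (16.9 to 25.4) CPM against 0.338 and 0.625, and H2-Ob at 13.5 and 12.5 CPM against 0.515 and 0.692. Of the H2-Oa UMIs, 52 of 63 in Fcmr+/+ and 80 of 98 in Fcmr-/- came from the 47 and 54 class II-high cells with dendritic cell markers. Without such cells H2-Oa was at 2.83 and 4.14 CPM against 0.155 and 0.256, and H2-Ob at 4.37 and 3.70 against 0.417 and 0.519, all under the 5 CPM asked of a called gene. Ciita was at 30.1 and 30.6 CPM against 1.45 in Fcmr+/+ and 4.36 in Fcmr-/- remaining cells, a log2 ratio of 3.67 (3.28 to 4.04) and 2.56 (2.22 to 2.89). The DNA-binding partners of Ciita did not follow it. Rfx5, Rfxap, Rfxank, Nfya, Nfyb, Nfyc and Creb1 had log2 ratios between -0.33 and 0.53 over the 2 libraries, all short of 2-fold.

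Of the enzymes that prepare antigen and trim Cd74, Ctss (cathepsin S, which makes the last cuts in Cd74 in many antigen-presenting cells) was at 2598 and 3331 CPM in class II-high cells against 2690.2 and 3264, a log2 ratio of -0.05 and 0.03. Ctsb was at 2263 and 2928 CPM against 7078 and 6636, Ctsd at 1053 and 1316 against 4114 and 3689.9, and Ctsl at 739 and 719 against 2019 and 2367. All 3 were more than 2-fold lower in class II-high cells of both libraries, but the log2 ratio of Ctsb in Fcmr-/- was -0.99 without cells with dendritic cell marker UMIs. Lgmn (legumain) had log2 ratios of -0.94 and -0.75. Ifi30, the thiol reductase that opens disulfide bonds of antigens, was instead at 1098 and 1193 CPM against 570.2 and 674. Of the ubiquitin ligases that remove class II from the surface, March1 was at 45.8 and 34.9 CPM against 20.9 and 21.2, higher in class II-high cells (without those cells 40.1 and 33.5 against 20.8 and 21.1), and March8 at 11.3 and 12.8 against 28.4 and 24.4, lower in them. Of the 21 genes of the pathway list (23 written, without the ranking genes) that reached 5 CPM, 7 were at least 2-fold higher and 4 lower in Fcmr+/+, and 6 and 3 in Fcmr-/-, against 3.78% of all genes higher and 6.76% lower in Fcmr+/+ and 2.57% and 4.17% in Fcmr-/-. H2-DMb2, H2-Oa, H2-Ob, Ciita and Rfx5 reached 5 CPM in class II-high cells only, and of the other 16 genes 3 were higher and 4 lower in Fcmr+/+ and 2 and 3 in Fcmr-/-. Over the 21 genes the median log2 ratio was 0.00 and 0.07. Without cells with dendritic cell marker UMIs, 19 genes reached 5 CPM, of which 4 were higher in each library and 4 and 2 lower. Over all genes tested the medians were -0.16 and -0.17.

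**Figure D1:**
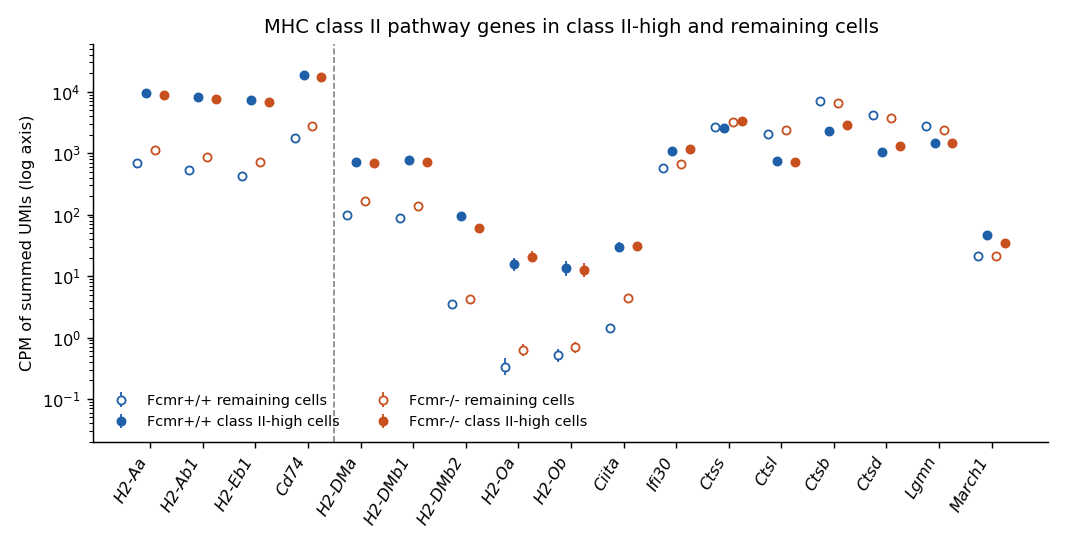
CPM of summed UMIs (log axis) for class II pathway genes in class II-high cells (filled) and remaining cells (open) of the Fcmr+/+ (blue) and Fcmr-/- (orange) libraries, with exact Poisson 95% intervals that are mostly smaller than the points. The 4 genes left of the dashed line ranked the cells, the H2-DM, H2-O and Ciita points of class II-high cells lie above those of the remaining cells, Ctss points nearly coincide, and Ctsl, Ctsb, Ctsd and Lgmn lie lower in class II-high cells.

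Beyond the pathway, 333 of 8801 genes with at least 5 CPM were at least 2-fold higher in Fcmr+/+ class II-high cells than in the remaining cells (3.78%) and 595 lower (6.76%). In Fcmr-/- 225 of 8750 were higher (2.57%) and 365 lower (4.17%). In both libraries at once, 216 of 8969 genes were higher (2.41%) and 296 lower (3.30%), and 0 were 2-fold higher in one library and 2-fold lower in the other. The 4 ranking genes are left out of these counts. The medians over all genes lay below 0, as given above, and when log2 ratios were centred on their median over genes with at least 20 CPM 269 genes were higher and 208 lower in both libraries, so that the share of higher calls went from 42.2% to 56.4%.

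Of the 15 highest genes, 4 were on the dendritic cell list (Cd209a, Ccl17, Mgl2 and H2-DMb2) and 1 on the monocyte list (Ccr2). H2-DMb2 is also a class II loading gene of the pathway list, so it does not mark dendritic cells apart from class II. The 2724 ranked genes had at least 50 CPM in class II-high or remaining cells of both libraries. Those on the dendritic cell list reached this in class II-high cells only, where the filter favors high ratios, and Ccr2 in both kinds of cell. The share of each list among the ranked genes was not counted, so these counts show no excess. Cd209a, a C-type lectin of the DC-SIGN family, was at 105 CPM (interval 95.5 to 116) in Fcmr+/+ and 88.4 CPM (80.1 to 97.3) in Fcmr-/- class II-high cells, against 1.85 and 2.08 CPM, a log2 ratio of 5.22 and 4.86. Ccl17, a chemokine for CCR4-bearing T cells, was at 225 and 81.6 CPM against 5.84 and 2.44. Il1r2, a decoy receptor for interleukin-1, was at 197 and 112 CPM against 6.21 and 4.74. Mgl2 (CD301b), a lectin for galactose-type sugars, was the most abundant of the dendritic cell list, at 408 and 258 CPM against 34.2 and 24.99. For each of these 4 genes both libraries put class II-high cells far above the remaining ones, and Ccl17 was the one whose level differed most between the libraries. Its log2 ratio of Fcmr-/- to Fcmr+/+ class II-high cells, -1.46, turned to 0.30 without cells with dendritic cell marker UMIs. With cells thinned to 5000 UMIs, Ccl17 was seen in 8.68% of Fcmr+/+ and 3.69% of Fcmr-/- class II-high cells. Ccr2, the receptor that draws monocytes toward Ccl2, was at 592 and 508 CPM against 116 and 120.3, with log2 ratios of 2.34 (2.26 to 2.42) and 2.07 (1.99 to 2.15). After thinning to 5000 UMIs, 80.4% of Fcmr+/+ and 74.0% of Fcmr-/- class II-high cells had a Ccr2 UMI, against 28.3% and 30.7% of the remaining cells, whereas Cd209a was seen in 11.6% and 7.13% against 0.315% and 0.356%. Without thinning, a Ccr2 UMI was in 91.6% and 82.1% against 45.1% and 44.3% of cells. No cell type known to lack these genes was sorted, so the share from free RNA was not measured.

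The other genes among the 15 highest by the log2 ratio nearer to 0 of the libraries were Ifitm1 (an interferon-induced membrane protein), H2-DMb2, H2-DMb1, Gpr171, Ear2 (a ribonuclease of the eosinophil family), Tmem176a, Tmem176b, Napsa (an aspartic protease), Nr4a3 (an orphan nuclear receptor) and Ccnd2 (cyclin D2). Their log2 ratios ran from 2.08 for Ccnd2 to 4.34 for Ifitm1 in Fcmr-/- and from 2.14 for Nr4a3 to 4.40 for H2-DMb2 in Fcmr+/+.

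Of the 15 lowest genes, 3 were on the list of scavenger and resident-type macrophage genes (Igf1, Gas6 and Pf4) and 3 on that of lipid-associated genes (Fabp4, Gpnmb and Cd36). Of these, Igf1 and Gas6 reached 50 CPM in the remaining cells only, and the others in both kinds of cell. The share of these lists among the ranked genes was not counted either. Gpnmb, a glycoprotein of lipid-laden macrophages, was at 94.6 and 189 CPM in Fcmr+/+ and Fcmr-/- class II-high cells, against 965 and 1037 CPM. Igf1, a growth factor, was at 22.4 and 29.1 CPM against 330.5 and 243. Fabp4, a fatty acid carrier, was at 53.5 and 56.5 CPM against 546 and 426. These 3 genes were over 5-fold lower in class II-high cells of both libraries. Atp6v0d2, a subunit of the proton pump that acidifies lysosomes, was at 12.3 and 10.6 CPM against 162 and 121. The remaining 11 of the 15 lowest genes were Cela1, Pmp22, Serpinb6a, Tfrc (transferrin receptor), Syngr1, Cd36 (a scavenger receptor for lipids), Gas6 (the ligand that bridges dying cells to MerTk), Pf4, Rnf128, Igfbp4 and Ctsk (cathepsin K). Pf4, a platelet factor also made by macrophages, was the most abundant of them, at 825 and 616 CPM against 4085 and 3205.

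**Figure D2:**
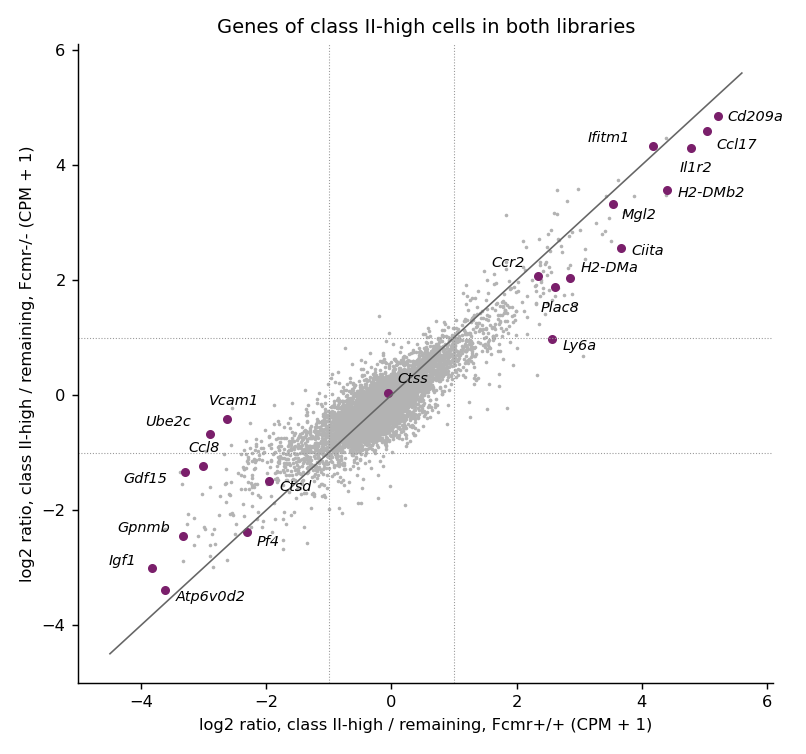
Log2 ratio of class II-high to remaining cells (1 CPM added) in the Fcmr+/+ library (horizontal axis) and the Fcmr-/- library (vertical axis), with 1 grey point per gene, named genes in purple, a diagonal line of equal ratios and dotted lines at 2-fold. Cd209a (5.22 and 4.86) and Igf1 (-3.82 and -3.02) lie near the ends of the cloud, and Ly6a, Vcam1, Ube2c and Gdf15 lie away from the diagonal.

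Of 25 dendritic cell genes listed, 19 reached 5 CPM, 11 of them in class II-high cells only, where the filter leaves little room for a call other than higher. Of the other 8, which also reached 5 CPM in the remaining cells, 5 were at least 2-fold higher in Fcmr+/+ class II-high cells and 4 in Fcmr-/-, and 0 were lower. In each of the other lists below, at most 3 genes reached 5 CPM in 1 kind of cell only. Over all genes, the shares to set beside these counts were 3.78% higher and 6.76% lower in Fcmr+/+, and 2.57% and 4.17% in Fcmr-/-. Those shares are over genes with 5 CPM in that library, whereas the lists took genes with 5 CPM in either library. Counted as the lists were, 350 of 8969 genes were higher and 602 lower in Fcmr+/+, and 238 and 379 in Fcmr-/-. Flt3, a growth factor receptor of dendritic cells, was at 11.3 and 7.86 CPM against 0.201 and 0.267, Ccr7, which guides cells to lymph nodes, at 20.2 and 45.7 against 0.973 and 3.24, and Xcr1, of cross-presenting dendritic cells, at 2.71 and 10.8 against 0.0402 and 0.350. Leaving out the cells with dendritic cell marker UMIs removes the defining markers by construction. Of the 9 genes of the list that then reached 5 CPM, 6 were higher in Fcmr+/+ and 5 in Fcmr-/-. Ccl17 and H2-DMb2, both on this list, then reached 5 CPM in class II-high cells only, where the filter favors a higher call. Over all genes, 151 of 8927 were then higher in both libraries at once, and shares within each library are not given. Of 17 monocyte genes with at least 5 CPM, 11 were at least 2-fold higher in Fcmr+/+ class II-high cells and 9 in Fcmr-/-, none was 2-fold lower, and the median log2 ratio was 1.73 and 1.23. Plac8 was at 731 and 783 CPM against 118 and 211, and Ly6c2, the Ly6C surface protein of inflammatory monocytes, at 156 and 305 against 27.0 and 99.9. Of the tested monocyte genes F13a1 (coagulation factor XIII) was the one below the remaining cells, with log2 ratios of -0.66 and -0.66. Of 15 scavenger and resident-type macrophage genes, 14 were 2-fold lower in Fcmr+/+ and 10 in Fcmr-/-, with medians of -2.11 and -1.35. Mrc1 (CD206), the mannose receptor, was at 439 and 357 CPM against 922 and 638, and Folr2 at 55.7 and 50.2 against 248 and 169. Of 16 lipid-associated genes, 10 were 2-fold lower in Fcmr+/+ and 9 in Fcmr-/- and 1 higher in each, with medians of -1.50 and -1.25. Spp1 (osteopontin) was at 545 and 1206 CPM against 2789.6 and 5169, and Itgax (CD11c) ran the other way at 68.5 and 65.5 against 29.1 and 25.9. Of 19 lysosomal genes, 7 were lower in Fcmr+/+ and 5 in Fcmr-/-, where 1 was higher (0 without cells with dendritic cell marker UMIs), and Cst3 (cystatin C, an inhibitor of cathepsins) was at 2465 and 2892 CPM against 1347 and 1419, log2 ratios of 0.87 and 1.03 that were 0.52 and 0.42 without those cells.

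Few of the co-stimulatory genes were 2-fold higher. Cd86, which engages CD28 on T cells, was at 189.9 and 217 CPM against 82.3 and 102, a log2 ratio of 1.20 and 1.09. Cd80 had log2 ratios of 1.47 and 0.87, Cd40 of 0.57 and 0.81, and Pdcd1lg2 (PD-L2) of 2.00 and 1.79, while Cd274 (PD-L1) had 0.21 and -0.01. Of the 15 tested genes of the list, 4 were 2-fold higher and 1 lower in Fcmr+/+ and 2 higher and 0 lower in Fcmr-/-. Pdcd1lg2 reached 5 CPM in class II-high cells only and Cd276 in the remaining cells only. Of the other 13 genes, 3 were higher in Fcmr+/+ and 1 in Fcmr-/-, and 0 were lower, against 3.78% of all genes higher in Fcmr+/+ and 2.57% in Fcmr-/-. Among 36 transcription factors of myeloid cells, 5 were 2-fold higher in each library, and 3 were lower in Fcmr+/+ (1 without cells with dendritic cell marker UMIs) and 1 in Fcmr-/-, against 3.78% higher and 6.76% lower over all genes in Fcmr+/+ and 2.57% and 4.17% in Fcmr-/-. Irf4 had log2 ratios of 1.68 and 1.95, Runx3 of 1.26 and 1.30, Nr4a2 of 1.69 and 1.61, and Bhlhe41 was lowest with -2.85 and -2.99. Irf8 was near equal, with 0.06 and 0.25, as was Spi1 (PU.1) with 0.24 and 0.30.

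A minority of interferon-responsive genes were 2-fold higher in class II-high cells. The shares over all genes were 3.78% higher and 6.76% lower in Fcmr+/+, and 2.57% and 4.17% in Fcmr-/-. Of 35 type I interferon response genes, 9 were 2-fold higher in Fcmr+/+ and 3 in Fcmr-/-, with 0 lower in either and medians of 0.73 and 0.43. Of 24 type II interferon response genes, 4 and 3 were 2-fold higher (7 and 3 without cells with dendritic cell marker UMIs), with medians of 0.59 and 0.36. Some members lay below 0 in Fcmr-/-, such as Nos2 (inducible nitric oxide synthase), with 0.03 and -0.76, and Cmpk2, with 0.05 and -0.47. Of 23 genes of class I presentation, 2 were higher in Fcmr+/+ (1 without cells with dendritic cell marker UMIs) and 0 in Fcmr-/-, with medians of 0.49 and 0.32. The class I counts of 2 and 0, and the 3 of each interferon list in Fcmr-/-, are too small to read against the shares over all genes. The 9 of 35 type I genes in Fcmr+/+ lay above the 3.78% of all genes, a difference that was not tested. The class I light chain B2m had log2 ratios of 0.15 and 0.08. Many but not all genes of the cell cycle lists were 2-fold lower, and 0 were 2-fold higher. All 19 G2 and mitosis genes were 2-fold lower in Fcmr+/+ class II-high cells and 8 in Fcmr-/- (19 and 15 without cells with dendritic cell marker UMIs), and of 18 S-phase genes 10 and 13 were lower. Summed G2 and mitosis genes were at 127.4 CPM in Fcmr+/+ and 307 CPM in Fcmr-/- class II-high cells, against 638 and 585 CPM in the remaining cells.

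The chemokine genes went both ways, with 5 of 22 at least 2-fold higher and 4 lower in Fcmr+/+ and 6 and 3 in Fcmr-/-, or 3 and 4 of 20 and 4 and 2 without cells with dendritic cell marker UMIs. Of the 19 that reached 5 CPM in both kinds of cell, 3 were higher and 4 lower in Fcmr+/+, and 4 and 3 in Fcmr-/-. For this and the next lists, the shares over all genes were 3.78% higher and 6.76% lower in Fcmr+/+, and 2.57% and 4.17% in Fcmr-/-. Ccl22, which shares the receptor of Ccl17, was at 8.13 and 14.9 CPM against 0.507 and 0.775, and without cells with dendritic cell marker UMIs at 2.57 and 1.52 against 0.352 and 0.281, values under 5 CPM. Ccl5 was at 67.3 and 118 CPM against 32.1 and 58.7. Ccl12 was at 89.9 and 289 CPM against 444 and 629, with a log2 ratio in Fcmr-/- of -1.12 that was -0.84 without those cells, and Ccl24 at 22.7 and 16.4 against 70.8 and 72.7. Il1b, the most abundant inflammatory cytokine gene in class II-high cells, was at 3996 and 4402 CPM against 1568 and 1857. Lists whose medians lay near that of all genes were those of hypoxia and glycolysis (-0.03 in Fcmr+/+ and -0.20 in Fcmr-/-), inflammatory cytokines and NF-kB (-0.15 and 0.07), arginine and repair-type genes (-0.03 and -0.13) and uptake receptors (-0.30 and -0.42). Of 17 arginine and repair-type genes, 3 were 2-fold higher and 5 lower in Fcmr+/+ and 2 and 4 in Fcmr-/-. Of 24 uptake receptors, 2 were higher and 7 lower in Fcmr+/+ and 1 and 5 in Fcmr-/- (2 and 5 without those cells). Of 18 genes of inflammatory cytokines and NF-kB, 1 was higher and 3 were lower in each library (0 lower in Fcmr+/+ without those cells). Of 25 hypoxia and glycolysis genes 0 were higher and 1, Adm, was lower, in Fcmr+/+. Adm reached 5 CPM in the remaining cells only. Complement genes, Fc receptors and immediate-early and heat-shock genes had medians between -0.19 and 0.21, and 3 of 13 complement genes were 2-fold higher in each library and 1 was lower, in Fcmr+/+ (0 without those cells). Markers of melanoma cells summed to 46.6 and 63.1 CPM in class II-high cells against 83.9 and 115 CPM, those of neutrophils to 29.6 and 48.9 against 57.9 and 127, and those of fibroblasts and endothelium to 13.1 and 10.8 against 7.13 and 12.8.

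**Figure D3:**
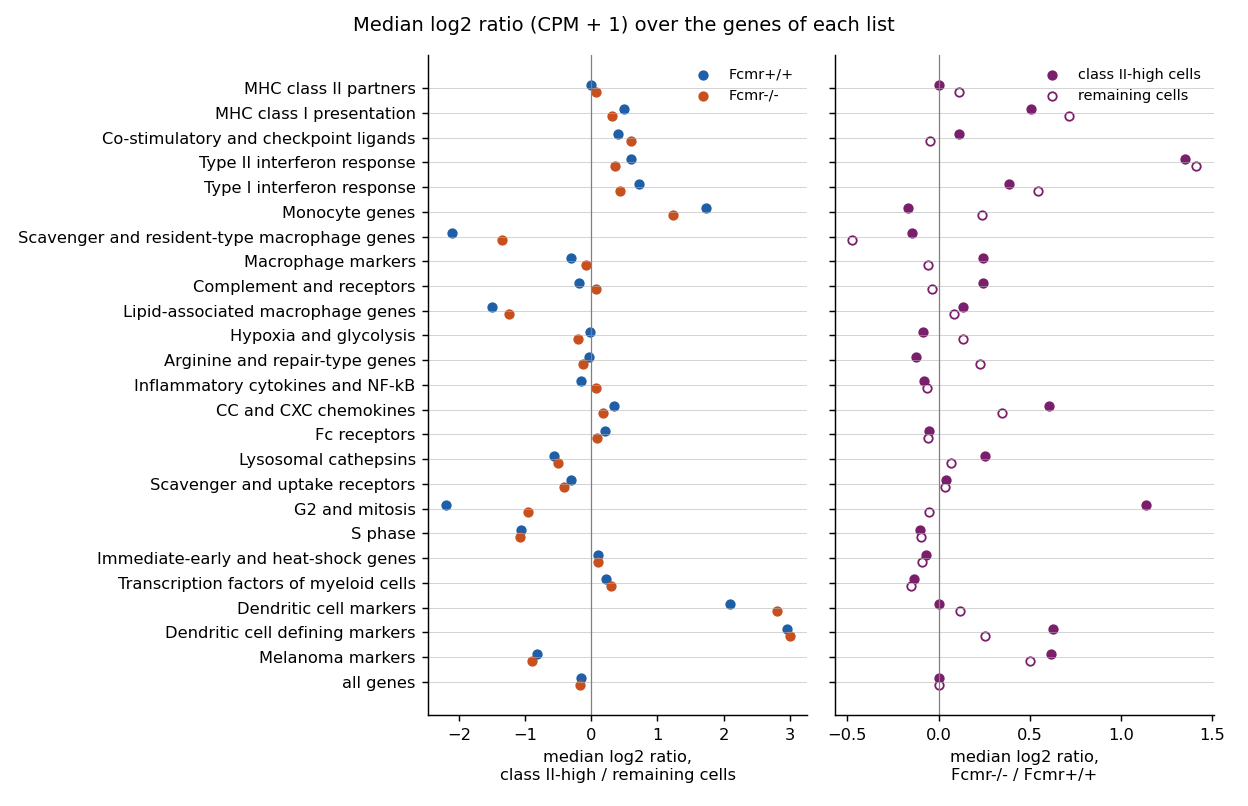
Median log2 ratio (1 CPM added) over the genes with at least 5 CPM of each list, on the left for class II-high against remaining cells of the Fcmr+/+ (blue) and Fcmr-/- (orange) libraries, on the right for Fcmr-/- against Fcmr+/+ within class II-high cells (filled) and remaining cells (open). Monocyte and dendritic cell lists (the latter with 11 of 19 genes that reached 5 CPM in class II-high cells only) lie to the right of 0 and scavenger, lipid-associated and cell cycle lists to the left in both libraries, and in the right panel the type II interferon list lies at 1.35 in class II-high and 1.41 in remaining cells.

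To see whether these differences were a step at the cutoff or a slope, the cells of each library were divided into 20 equal bins of the class II share, with class II-high cells close to the last bin. H2-DMa climbed over the bins from 41.1 CPM in the first and 55.0 in the tenth to 392 and 721 CPM in the last pair in Fcmr+/+, and from 47.8 and 139.9 to 446 and 702 in Fcmr-/-. The Fcmr-/- library lay above Fcmr+/+ in the middle bins and met it in the last. Ccr2 went from 29.5 CPM through 165 in bin 15 to 588 in Fcmr+/+, and from 33.0 through 132 to 509 in Fcmr-/-, and Gpnmb went down from 1393 to 93.1 and from 2349 to 190.1 CPM. Both were slopes that began well below the cutoff. Cd209a was at or under 1.16 CPM in bins 1 to 15 of both libraries, at 21.7 and 30.1 CPM in bin 19, and at 104 and 89.8 CPM in bin 20. Ctsb was at 8113 and 7989 CPM in the first bin and lowest in the last, at 2262 and 2922 CPM. C1qa had its lowest bin last in Fcmr+/+, at 1443 CPM, but in Fcmr-/- it was at 1870 CPM in the first bin, highest at 2821 in bin 15 and at 1900 in the last. Ciita in bin 15 was at 1.49 CPM in Fcmr+/+ and 7.22 in Fcmr-/-, and Ly6a in Fcmr-/- was highest in bin 18, at 945 CPM, before 893 in bin 20. As the cells were ordered by class II genes of the same cells, these curves describe the ordering and test nothing.

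**Figure D4:**
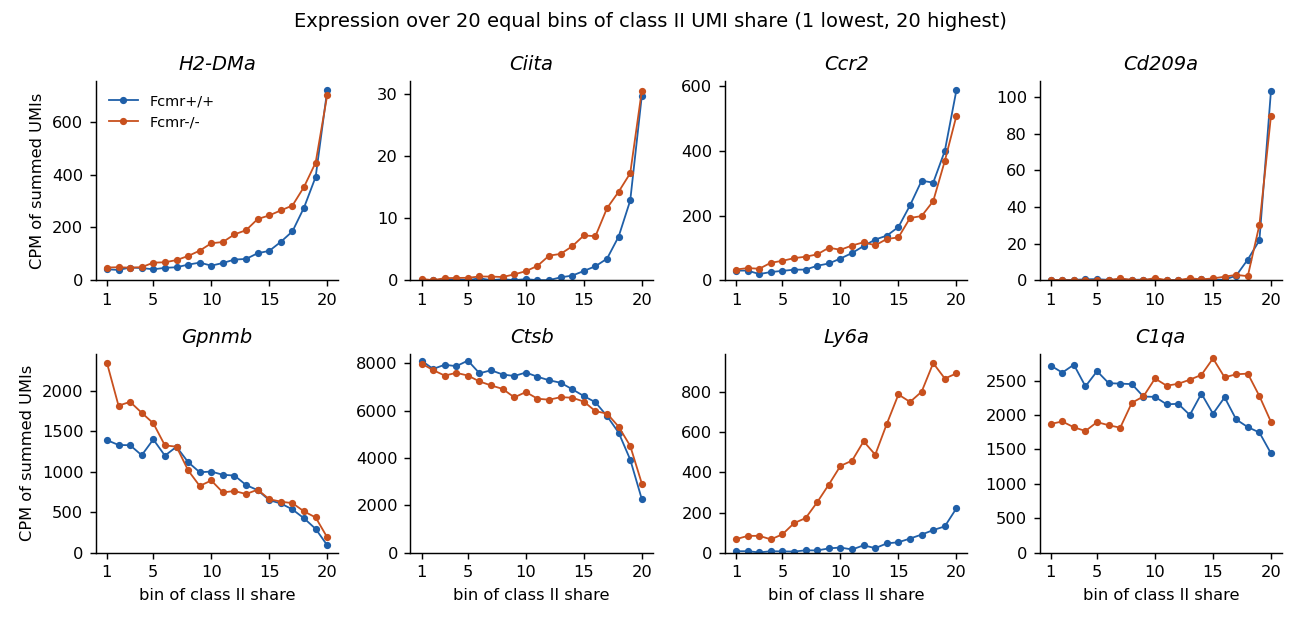
CPM of summed UMIs of 8 genes in 20 equal bins of cells ordered by class II share within the Fcmr+/+ (blue) and Fcmr-/- (orange) libraries, with bin 20 the highest. H2-DMa, Ciita and Ccr2 climb toward bin 20, Cd209a is near 0 until the last bins, Gpnmb and Ctsb descend, and Ly6a climbs earlier and higher in Fcmr-/-.

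Class II-high cells were not uniform. They were divided by dendritic cell marker UMIs and, among the rest, by whether C1qa, C1qb and C1qc, complement genes of macrophages, took at least 1500 per 1000000 UMIs, limits that were set after the values were seen. In Fcmr+/+ 47 cells (15.1%) had at least 2 dendritic cell marker UMIs, 88 (28.3%, interval 23.4 to 33.7%) were C1q-low and 176 (56.6%, interval 50.9 to 62.2%) C1q-high. In Fcmr-/- these were 54 (13.3%), 89 (21.9%, interval 17.95 to 26.2%) and 264 (64.9%, interval 60.01 to 69.5%). Of the remaining cells, 15.5% were C1q-low in Fcmr+/+ and 25.01% in Fcmr-/-. Within 25% of the C1q limit lay 7 and 16 class II-high cells. The most numerous kind, C1q-high, had Ccr2 at 614 and 533 CPM against 107 and 113 in C1q-high remaining cells, and H2-DMa at 611 and 636 against 95.6 and 178.

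Cd209a was used to set the first kind apart, where it was at 547 and 562 CPM. Ccl17 and Il1r2, which were not used, were also highest there. Ccl17 was at 981 CPM in the marker-bearing, 121 in the C1q-low and 15.5 in the C1q-high Fcmr+/+ class II-high cells, and at 201, 45.3 and 63.4 CPM in Fcmr-/-. Il1r2 was at 503, 243 and 72.6 CPM in the same order in Fcmr+/+ and at 414, 109 and 42.5 in Fcmr-/-. Ly6c2 was highest in C1q-low class II-high cells, at 264 and 488 CPM, and lowest in those with dendritic cell markers, at 49.4 and 83.2. Adgre1 and Mertk were lowest in marker-bearing class II-high cells, with Adgre1 at 49.4 and 80.5 CPM there and at 187 and 272 CPM in C1q-high ones. Gpnmb was low in all 3 kinds, between 91.2 and 210.1 CPM, against 667 to 1488 CPM in the matching remaining cells.

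When cells with dendritic cell marker UMIs were left out before ranking, 151 of 8927 genes were 2-fold higher and 304 lower in both libraries. When all cells under the C1q limit were left out, 188 Fcmr+/+ and 278 Fcmr-/- class II-high cells stayed, and of 8976 genes 170 were higher and 287 lower. Of 17 monocyte genes, 12 were then 2-fold higher in Fcmr+/+ and 8 in Fcmr-/-, and 0 were lower. The shares of all genes within each library are not given for this setting, only those counts for both libraries at once. In that comparison Ccr2 was at 616 and 529 CPM against 108 and 113, and log2 ratios had the same direction as with all cells for H2-DMa (2.66 and 1.85) and Igf1 (-3.68 and -2.90). Of these class II-high cells, 176 and 264 had fewer than 2 dendritic cell marker UMIs.

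Among the highest genes, leaving out cells with dendritic cell marker UMIs lowered most ratios, but not that of Ccl17 in Fcmr-/-. Cd209a, which defines those cells, was then at 1.54 and 1.09 CPM by construction. Log2 ratios without them were 3.69 and 5.38 for Ccl17 (with all cells 5.05 and 4.59), 4.11 and 3.38 for Il1r2 (4.78 and 4.30), 3.61 and 2.46 for H2-DMb2 (4.40 and 3.56) and 2.80 and 2.82 for Mgl2 (3.54 and 3.32). They were 3.74 and 3.34 for Ifitm1 (4.18 and 4.34), 3.19 and 2.44 for Gpr171 (3.71 and 3.18) and 2.57 and 1.86 for Napsa (3.09 and 2.54). The ratios of these 7 genes were still above 1, that is 2-fold, in both libraries. Ccr2, with 2.40 and 2.11, and Ciita, with 3.41 and 2.21, were also above 1 in both.

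**Figure D5:**
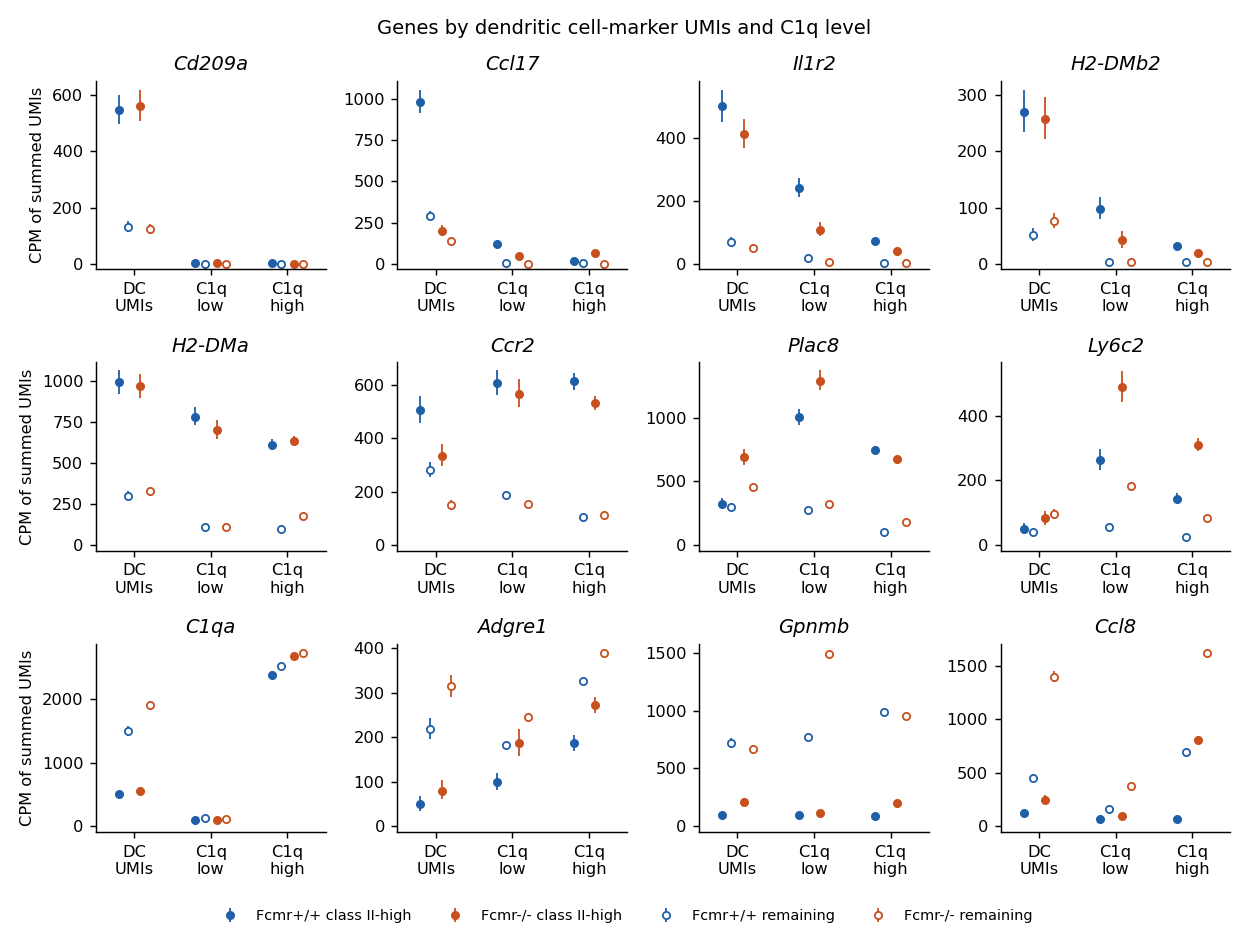
CPM of summed UMIs with exact Poisson 95% intervals for 12 genes in cells with at least 2 dendritic cell marker UMIs (DC UMIs), C1q-low and C1q-high cells, for class II-high (filled) and remaining (open) cells of the Fcmr+/+ (blue) and Fcmr-/- (orange) libraries. Ccl17 and Il1r2 are highest in class II-high cells with DC UMIs, Ccr2 is above the remaining cells in all 3 kinds, Gpnmb is below them in all 3, and Ccl8 in class II-high cells is highest in the C1q-high cells of Fcmr-/-.

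Other programs crossed the class II-high cells to different degrees. For each of 9 lists the 718 cells with the largest share of UMIs, 5% of all cells, were taken in the same way. The dendritic cell marker set held 34.1% of Fcmr+/+ and 26.3% of Fcmr-/- class II-high cells, against 4.24% and 3.28% of the remaining cells. Its list includes the class II loading gene H2-DMb2, and the share that rests on this gene was not counted. The monocyte set held 15.4% and 11.5% against 4.54% and 4.60%, and the type I interferon set 7.07% and 13% against 3.06% and 6.03%. For the type II interferon set it was 9 Fcmr+/+ class II-high cells (2.89%, interval 1.33 to 5.42%) and 67 Fcmr-/- ones (16.5%, interval 13 to 20.4%), against 1.34% and 7.39% of the remaining cells. These 4 sets held larger shares of class II-high than of remaining cells in both libraries. The set for inflammatory cytokines and NF-kB held 4.18% and 4.91% against 3.96% and 5.87%, close to the share over all cells. Fewer class II-high than remaining cells were in the sets for hypoxia and glycolysis (2.57% and 1.23% against 4.62% and 5.61%), G2 and mitosis (0.643% and 2.21% against 5.58% and 4.87%) and scavenger and resident-type genes (0% and 1.72% against 5.6% and 4.91%). No class II-high cell was in the lipid-associated set, which allows up to 0.965% in Fcmr+/+ and 0.737% in Fcmr-/-, against 2.38% and 7.56% of the remaining cells.

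The comparison of Fcmr-/- with Fcmr+/+ class II-high cells asked which genes differed with genotype once the class II share was held high. With at least 5 CPM, 110 of 8498 genes were at least 2-fold higher in Fcmr-/- (1.29%) and 68 lower (0.800%). Genotype and library cannot be told apart here. Of 24 type II interferon response genes, 16 were 2-fold higher in Fcmr-/- class II-high cells and 0 lower, with a median log2 ratio of 1.35, and in the remaining cells also 16 were higher, with a median of 1.41. Over all 8969 genes counted as the lists were, 130 were higher and 71 lower in class II-high cells. In the remaining cells 83 were higher and 27 lower, and the 2 medians were 0.00 and 0.00. Of the class II genes, Cd74, H2-DMa and Ciita had log2 ratios of -0.11, -0.06 and 0.03 among class II-high cells, but 0.65, 0.76 and 1.13 among the remaining cells. H2-DMb2 was lower in Fcmr-/- class II-high cells, with -0.63 (-0.94 to -0.31), or -1.09 without cells with dendritic cell marker UMIs, and H2-Oa had 0.40 (-0.22 to 1.03). For Cd74 the first value follows from the rule, which set 1 limit for both libraries.

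The largest difference was in Cxcl9, a chemokine that interferon-gamma induces and that attracts CXCR3-bearing T cells. It was at 21.9 CPM (interval 17.6 to 27.0) in Fcmr+/+ and 397 CPM (379 to 415) in Fcmr-/- class II-high cells, a log2 ratio of 4.12, against 14.2 and 177 CPM in the remaining cells. Iigp1, a GTPase that acts on pathogen vacuoles, was at 5.67 and 62.9 CPM against 3.11 and 73.0, and Gbp2, a guanylate-binding protein, at 37.7 and 186 against 20.9 and 137. Ly6a (Sca-1) was at 219 and 882 CPM against 36.3 and 449.7. In these genes the Fcmr-/- library was higher in class II-high and remaining cells alike. The others of the 10 highest were Ccl8, Vcam1, Fam26f, Irg1 (the enzyme that makes itaconate), Il18bp (which neutralizes interleukin-18) and AW112010, an interferon-responsive transcript, with log2 ratios among class II-high cells from 1.85 for AW112010 to 2.91 for Ccl8.

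Ccl8 and Vcam1 differed by genotype more in class II-high cells than in the remaining ones. Ccl8, a chemokine of resident-type macrophages, was at 78.8 and 598 CPM in Fcmr+/+ and Fcmr-/- class II-high cells, a log2 ratio of 2.91 (2.70 to 3.12), and at 645 and 1414 CPM in the remaining cells, a log2 ratio of 1.13 (1.11 to 1.15). Vcam1, an adhesion molecule, was at 15.3 and 80.1 CPM and at 99.7 and 108 CPM, log2 ratios of 2.32 (1.83 to 2.82) and 0.11 (0.06 to 0.16). Without cells with dendritic cell marker UMIs Vcam1 was at 29.6 and 89.7 CPM in class II-high cells, a log2 ratio of 1.57. Among C1q-high class II-high cells Ccl8 was at 65.5 CPM in Fcmr+/+ and 808 in Fcmr-/-, and Vcam1 at 13.3 and 104. Of 19 G2 and mitosis genes, 12 were 2-fold higher in Fcmr-/- than in Fcmr+/+ class II-high cells, with a median log2 ratio of 1.14, against 0 and a median of -0.05 in the remaining cells. Over all genes, 1.29% were 2-fold higher in Fcmr-/- class II-high cells. The set of top cells for this list held 2 Fcmr+/+ class II-high cells (0.643%, interval 0.078 to 2.30%) and 9 Fcmr-/- ones (2.21%, interval 1.02 to 4.16%), so the summed counts can rest on few cells. Ube2c, a ubiquitin-conjugating enzyme of mitosis, was at 8.62 (35 UMIs) and 37.6 (177 UMIs) CPM in class II-high cells, and Birc5 (survivin) at 13.8 and 32.5. Gdf15, a stress-induced cytokine, was at 39.9 and 90.5 CPM in class II-high cells and 402 and 232 in the remaining ones. The differences between the 2 log2 ratios were 2.22 for Ube2c, 2.21 for Vcam1, 1.96 for Gdf15, 1.78 for Ccl8 and 1.38 for Birc5, and were not tested. Without those cells they were 1.90, 1.46, 1.81, 2.15 and 1.26 in the same order.

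Among genes with at least 50 CPM in class II-high or remaining cells of both libraries, Ly6a and Ly6c2 were among the 5 at the other end. The log2 ratio of class II-high to remaining cells was 2.56 in Fcmr+/+ and 0.97 in Fcmr-/- for Ly6a, a difference of -1.59, and 2.49 and 1.60 for Ly6c2, a difference of -0.89. Ltb4r1 (a leukotriene B4 receptor), AA467197 and Itgb7 (integrin beta 7) had differences of -1.06, -1.02 and -0.94. Without cells with dendritic cell marker UMIs the 5 differences were -1.66, -0.79, -1.10, -1.01 and -0.82. These contrasts share their cells with the ratios above and are the same values taken another way.

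Among genes lower in Fcmr-/- class II-high cells, Ccl17 was at 81.6 against 225 CPM, a log2 ratio of -1.46, and this turned to 0.30 when cells with dendritic cell marker UMIs were left out before ranking. Hp (haptoglobin) was at 30.2 against 102 CPM, and Mt2 (metallothionein 2, which binds zinc) at 92.9 against 289. Cirbp, a cold-inducible RNA-binding protein, was at 21.3 against 77.4 CPM, and in the remaining cells at 22.9 against 64.6. Both kinds of cell showed the same direction for all 4 genes. Amica1, Fcrls, Hist1h1c, Retnla and Errfi1 were also among the 10 lowest, with log2 ratios from -1.33 for Amica1 to -0.99 for Errfi1. That of Retnla was -1.11, but 1.05 when class II-high cells were the top 2.5% of cells, and that of Amica1 was -1.96 without cells with dendritic cell marker UMIs. Genes with near-identical copies in these results, such as Ly6c2, Ear2, Gbp2 and Iigp1, could share reads with their copies.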

How the data were processed

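Single-cell libraries of FACS-sorted MerTk+ CD64+ TMPs from B16 tumors, 1 per genotype, were analysed. The authors deposited raw UMI counts for each gene in each cell, from Cell Ranger and GRCm38, without normalization. Seurat 2.1.0 is also named in the submitters' processing notes. The Fcmr+/+ library held 131062107 UMIs in 6392 cells and the Fcmr-/- library 125802196 in 8017, of which 6352 and 7999 cells passed the filters of the study. Counts were summed over class II-high and over remaining cells within each library and scaled to CPM. For a log2 ratio 1 CPM was first added to both groups. A gene was called at 2-fold, with no test, if 1 of its groups reached 5 CPM. Intervals are exact Poisson and Clopper-Pearson 95% intervals for counting error, and those of log2 ratios join the bounds of both groups. A high level in summed counts can come from few cells. Doublets were treated only by the limit of 7000 genes.

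The members and the 28 gene lists were chosen with earlier results of these data known. Genes named are the 15 highest and 15 lowest in both libraries, the 10 highest and 10 lowest between genotypes and the 5 at each end of the difference. They had at least 50 CPM in both libraries, or between genotypes in either, besides the class II pathway, macrophage markers and extremes of each list. Further list members and the genes of the divided cells were chosen after their values were seen. Some genes that the rule names or the lists hold are not reported here. The calculation was tested on simulated data. Python 3.11.15, numpy 2.4.6, scipy 1.17.1 and pandas 2.3.3 were used, and 17 alternatives covered the ranking, the filters, the scaling and the cells left out.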

Additional observations from a re-analysis of the deposited data

Results flagged for a closer look

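Of the named genes reported here, 5 had log2 ratios of class II-high to remaining cells whose counting intervals lay on opposite sides of 0 in the 2 libraries. Iigp1 had 0.70 in Fcmr+/+ and -0.21 in Fcmr-/- and Errfi1 0.18 and -0.42. Il18bp had -0.43 and 0.25, Lyz2 -0.31 and 0.12, and Ctss -0.050 and 0.029. None of these 10 ratios reached 2-fold. Each genotype had 1 library, so the differences were not tested.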

How the results depend on the processing

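Limits: 1 library per genotype, a cutoff without a gap, and few UMIs for Ube2c, H2-Oa or Ciita. No paired analysis was possible because each genotype had 1 library. Taking the top 2.5% or 10% of cells made 2.68% or 9.04% of Fcmr+/+ and 2.36% or 10.8% of Fcmr-/- cells class II-high. Genes 2-fold higher in both libraries, 216 in the main comparison, ranged from 130 to 287, with 130 after adding 5 CPM and 133 with at least 20 CPM. Genes 2-fold lower, 296 in the main comparison, were 491 for the top 2.5%, 160 for the top 10%, 134 with 5 CPM added and 174 with at least 20 CPM. Genes 2-fold higher in Fcmr-/- class II-high cells, 110 in the main comparison, were 251 for the top 2.5%, 63 with 5 CPM added, 51 with at least 20 CPM, 222 without a filter and 193 with only C1q-high cells, an alternative chosen after seeing the data. Genes lower there, 68 in the main comparison, were 210, 24, 21 and 154 under the first 4 of these. The 5 CPM added and the filters change the counts by construction; the cause of the others was not tested. Of the named genes' ratios, 4 reversed. Leaving out cells with dendritic cell marker UMIs turned Ccl17 in Fcmr-/- against Fcmr+/+ class II-high cells to 0.30. For the top 2.5%, Retnla had -3.97 in Fcmr+/+ and -1.97 in Fcmr-/- class II-high against remaining cells, and 1.05 between genotypes, in place of 1.26, 1.08 and -1.11. Of the other ratios of named genes under alternatives, 5932 stayed within the counting interval and 1466 moved outside it without a reversal of a called ratio.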
